A study of Mus musculus with 147 samples.

Results

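The 8 genes described here encode the CREB family of transcription factors (Creb1, Crem and Atf1) and the coactivators that work with them (the acetyltransferases Crebbp and Ep300, and Crtc1, Crtc2 and Crtc3). They were chosen by symbol, and all 8 were found among the 35438 genes of the WT and the knockout count tables. They were followed in 147 single wells, 51 with WT renin cells and 96 with Renin-null cells. WT renin cells came from adult Ren1c+/+ Ren1c-YFP mice, and Renin-null cells from adult Ren1c-/- Ren1c-YFP mice, in which the renin gene is deleted; both are labelled as C57BL/6, and animals of both sexes were used in the study. All cells of both genotypes carried the same reporter, a YFP transgene under the 5′ regulatory sequence of Ren1c, and were sorted for YFP after enzymatic digestion of the kidney cortex. A cell was therefore picked for activity of the renin promoter, not for renin itself. By the methods the WT cells trace to 4 mice and 1 capture and the Renin-null cells to 12 mice and 4 captures, and mice with the knockout allele received saline injections after birth. The labels tie no well to a mouse or a capture, and they place the Renin-null wells in 2 sequencing libraries of 48 wells each, YFP1 and YFP2. Each genotype is thus 1 sample, no test between genotypes was possible, and genotype, capture and sequencing library cannot be told apart.

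CREB1, CREM and ATF1 are closely related basic leucine zipper proteins that bind the cAMP response element (CRE) as dimers and are phosphorylated by protein kinase A when cAMP rises. Phosphorylated CREB recruits CBP (Crebbp) or p300 (Ep300), which acetylate histones, while the CRTC proteins enter the nucleus after dephosphorylation and bind the leucine zipper itself. In the juxtaglomerular cell of the kidney, cAMP is the main stimulus for the renin gene, and a CRE in the renin enhancer, CREB and the acetyltransferases CBP and p300 are known parts of that response.

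The assay was full-length, polyadenylated RNA-Seq on the Fluidigm C1 System, in which each cell is lysed and amplified in its own well. The deposited values are estimated counts, which were rounded and scaled to counts per 1000000 counts of a well or of a genotype (CPM). WT wells held 26401 to 17124854 counts (median 1525972) and Renin-null wells 3628 to 14505243 (median 4107950.5), and the sums were 197904443 and 398812805 counts. Mitochondrially encoded genes made up 60.4% (median) of a WT well's counts and 12.4% of a Renin-null well's. Limits set at 100000 counts or more, 1000 genes or more and a mitochondrial share of 25% or less were met by 15 of 51 WT wells and 57 of 96 Renin-null wells. Intervals below are exact 95% intervals and cover counting error only. Those of levels and ratios count reads, of which PCR copies count repeatedly without molecular identifiers, and those of shares count wells as if each were a separate cell. Neither covers the differences between mice or captures, so the intervals are no test between genotypes.

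The deleted gene matched the labels. Ren1, on chr1:133350510-133360325, ranged over WT wells from 563 to 313965 CPM (median 21402) and was listed in all 51, whereas the 96 Renin-null wells held 54 counts in all, in 16 wells, with a highest well of 12.5 CPM. Akr1b7, an aldo-keto reductase used as a renin cell marker that does not need the renin protein, was found in 51 of 51 WT wells at 12.8 to 17648 CPM (median 254). In Renin-null wells it ran from 0 to 9710 CPM (median 376), and 73 of 96 wells had at least 10 CPM. The other 23 Renin-null wells carried little of the marker, and the ratios of the members were also taken without them.

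Among the Renin-null wells, 4 pairs stood apart because their profiles were nearly the same. Their Pearson correlations of log2(CPM + 1) across genes were 0.987, 0.985, 0.982 and 0.964, against 0.892 for the next Renin-null pair and 0.688 for the closest WT pair, and 3 of the pairs joined a YFP1 with a YFP2 well. These 8 wells held 12.4% of all Renin-null counts but 42.4% of Crem, 37.3% of Crtc1, 35.7% of Crebbp, 32.0% of Atf1 and 11.7% of Crtc3 counts, and under 1% of the counts of Creb1, Ep300 and Crtc2. Wells 46 and 94, for example, held 53766 and 53575 counts of Crebbp, 2807 and 4992 of Atf1 and no Ep300. Whether the wells of a pair hold the same cDNA was not tested, so the 96 wells may stand for fewer cells. The ratios and shares of wells of the members and the counts of the gene lists were also computed with each pair counted once, which left 92 Renin-null wells.

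**Figure D1:**
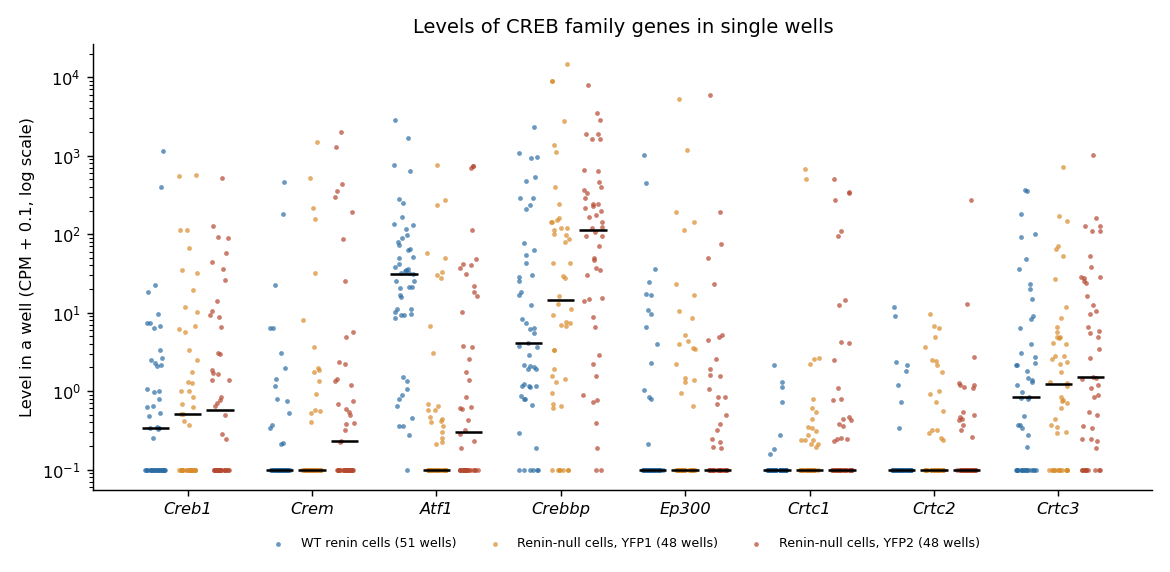
Level of each CREB family gene in every well, as CPM + 0.1 on a log axis, for 51 WT wells, 48 YFP1 wells and 48 YFP2 wells, with the median of each group as a black line. Wells without a count lie at 0.1. Atf1 has a WT median of 31.0 CPM and Renin-null medians near 0, Crebbp is the one gene with a higher median in both Renin-null libraries by over 10 CPM, and the other 6 genes are at or near 0 in most wells and highest in a few.

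Creb1, the founding member of the family (chr1:64532645-64604548, plus strand), was detected, with at least 1 count, in 28 of 51 WT wells (54.9%, 40.3% to 68.9%) and in 54 of 96 Renin-null wells (56.2%, 45.7% to 66.4%). Its levels in WT wells had a lowest value of 0, a median of 0.234 and a highest of 1152 CPM, and in Renin-null wells a lowest of 0, a median of 0.410 and a highest of 568 CPM. The Renin-null range lay within the WT range. Summed over wells, Creb1 was at 92.2 CPM over WT wells against 41.6 CPM over Renin-null wells, a log2 ratio (Renin-null over WT) of -1.15 (-1.18 to -1.12). That direction came from a single well: WT well 47 held 72% of the WT counts (13134 of 18250), and with the highest well of each genotype left out the levels were 27.4 and 31.3 CPM, a log2 ratio of 0.19. By wells the order was the other way round, since at least 10 CPM of Creb1 was found in 4 of 51 WT wells (7.84%, 2.18% to 18.9%) and in 19 of 96 Renin-null wells (19.8%, 12.4% to 29.2%). Of these, WT well 27 and Renin-null well 32 held 1 count each. Among the wells that met the limits, 3 of 15 WT (20.0%) and 16 of 57 Renin-null wells (28.1%) had at least 10 CPM of Creb1.

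Crem encodes both activators and the cAMP-inducible early repressor (chr18:3266048-3337748, minus strand). It was detected in 16 of 51 WT wells and in 41 of 96 Renin-null wells. Its median was 0 CPM in both genotypes, and its highest wells had 458 CPM over WT wells against 2010 CPM over Renin-null wells. Both genotypes overlapped again, with most wells at 0 and a few very high ones. The summed levels were 37.5 CPM over WT wells against 101.8 CPM over Renin-null wells, a log2 ratio of 1.44 (1.41 to 1.48). YFP1 alone gave 0.77, YFP2 alone 1.83, and near-identical wells counted once 1.19. With the highest well of each genotype left out it was 2.69. WT wells 28 and 47 held 71.8% and 27.8% of the WT counts of Crem, so that 2 wells stand for nearly all of the WT level. At least 10 CPM was present in 3 of 51 WT wells (5.88%, 1.23% to 16.2%) and in 13 of 96 Renin-null wells (13.5%, 7.41% to 22.0%). At least 10 counts were present in 2 of 51 WT and 14 of 96 Renin-null wells. Among the wells that met the limits, 2 of 15 WT (13.3%) and 10 of 57 Renin-null wells (17.5%) had at least 10 CPM of Crem.

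Atf1, which forms dimers with CREB1 (chr15:100227819-100261244, plus strand), behaved differently from the others. It was detected in 50 of 51 WT wells (98%, 89.6% to 100%) and in 50 of 96 Renin-null wells (52.1%, 41.6% to 62.4%). Over WT wells it ran from 0 to 2814 CPM with a median of 31.0, and over Renin-null wells from 0 to 765 CPM with a median of 0.118. At 10 CPM or more it was present in 36 of 51 WT wells (70.6%, 56.2% to 82.5%), 8 of 48 YFP1 wells and 13 of 48 YFP2 wells (21.9% of Renin-null wells together, 14.1% to 31.5%). In these libraries Atf1 was thus spread over more of the WT wells, though at 10 CPM or more not among the wells that met the limits on depth, genes and mitochondrial counts (4 of 15 WT and 19 of 57 Renin-null wells). After each well was thinned to 62000 counts, which leaves out 2 WT and 13 Renin-null wells, it was still found in 30 of 49 WT wells (61.2%, 46.2% to 74.8%) and 21 of 83 Renin-null wells (25.3%, 16.4% to 36.0%).

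The summed level of Atf1 did not follow its share of wells, at 48.9 CPM over WT wells against 64.2 CPM over Renin-null wells, a log2 ratio of 0.39 (0.36 to 0.43). The mean over wells of CPM, which gives a shallow well the same weight as a deep one, was 158 for WT and 42.2 for Renin-null wells, a log2 ratio of -1.90, so the direction of Atf1 depends on whether wells or counts are weighted equally. It also differed between libraries, -0.29 in YFP1 and 0.79 in YFP2. Atf1 is among the transcription factors that the study picked as higher in WT renin cells from these same wells, and its direction here is not independent evidence of that choice.

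Several well properties moved with Atf1 in WT cells. The 36 WT wells with at least 10 CPM of Atf1 had a median of 64.6% mitochondrial counts and 2977.5 genes, whereas the 15 WT wells below had 7.55% and 5519 genes. Every other member present at that level in at least 3 WT wells (Creb1, Crem, Crebbp, Ep300 and Crtc3) showed the opposite, with medians of 6.73% to 22.8% mitochondrial counts in its positive wells. The number of Atf1 counts hardly moved with depth, with a median of 37 counts among the 25 shallowest WT wells and 38.5 among the other 26, although their median totals were 915523 and 7116415.5. Such breadth was rare: 2.09% of WT genes with at least 100 counts were detected in 50 or more WT wells. Over the wells that met the limits the log2 ratio of Atf1 was 1.25. The processed pseudogene Atf1-ps, which could share reads with Atf1, was listed at 0 in every well. What part mitochondrial content or depth plays in the Atf1 difference was not tested.

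**Figure D2:**
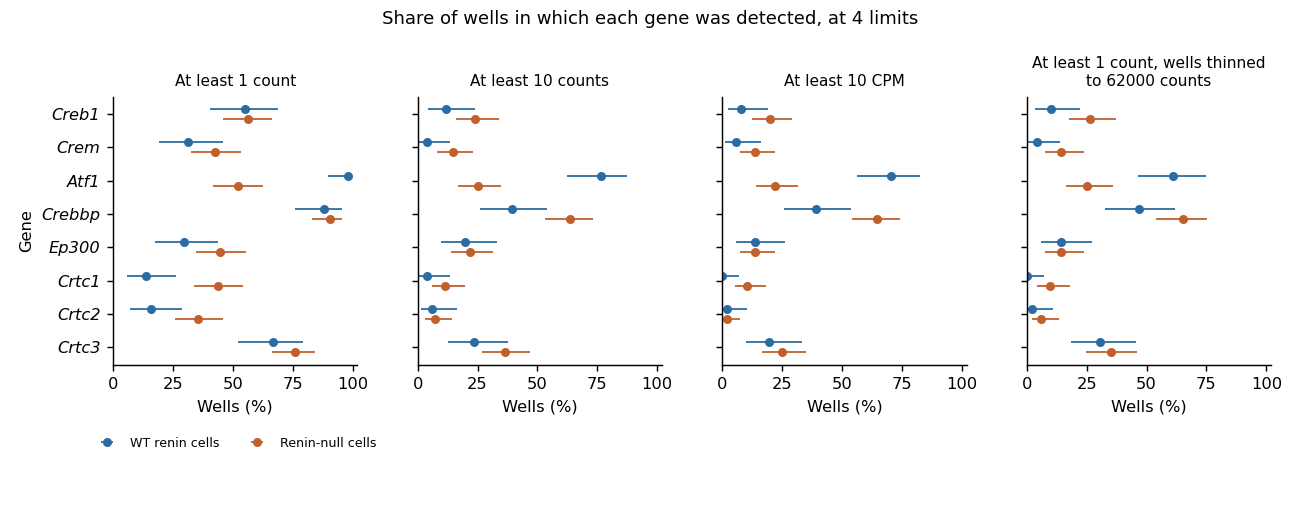
Share of wells in which each gene was detected, in percent, at 4 limits (at least 1 count, at least 10 counts, at least 10 CPM, and at least 1 count after thinning each well to 62000 counts), for WT renin cells and Renin-null cells, with exact 95% binomial intervals as bars. Atf1 is the gene whose WT share lies above the Renin-null share at each limit by over 30 percentage points (70.6% against 21.9% at 10 CPM).

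Crebbp, which encodes CBP (chr16:4081328-4213997, minus strand), was the most broadly detected member in Renin-null cells. It was found in 45 of 51 WT wells (88.2%, 76.1% to 95.6%) and in 87 of 96 Renin-null wells (90.6%, 82.9% to 95.6%). WT wells ran from 0 to 2332 CPM with a median of 3.96. YFP1 wells ran up to 14648 CPM with a median of 14.5, and YFP2 wells up to 7937 CPM with a median of 114. At 10 CPM or more Crebbp was present in 20 of 51 WT wells (39.2%, 25.8% to 53.9%), 26 of 48 YFP1 wells and 36 of 48 YFP2 wells (64.6% of Renin-null wells together, 54.2% to 74.1%), so more Renin-null wells than WT wells carried it. The shares were closer among the wells that met the limits, at 10 of 15 WT and 43 of 57 Renin-null wells, and with near-identical pairs counted once 58 of 92 Renin-null wells carried it. Summed, Crebbp was at 261 CPM over WT wells against 804 CPM over Renin-null wells, a log2 ratio of 1.62 (1.61 to 1.64), and it remained above 0 at 1.86 in YFP1, 1.39 in YFP2, 1.43 with near-identical wells counted once and 1.99 without the highest wells. With TMM factors, which rescale the summed counts by a trimmed mean of gene ratios, it was 0.92.

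Ep300 encodes p300, the close relative of CBP (chr15:81585351-81652077, plus strand). It was detected in 15 of 51 WT wells and 43 of 96 Renin-null wells. Its median was 0 CPM in both genotypes, with highest wells of 1034 CPM over WT wells against 5948 CPM over Renin-null wells. In contrast to Crebbp, its share of wells at 10 CPM or more was nearly the same over all wells, 7 of 51 WT wells (13.7%, 5.70% to 26.3%) and 13 of 96 Renin-null wells (13.5%, 7.41% to 22.0%). At 10 counts or more Ep300 was found in 10 of 51 WT (19.6%) and 21 of 96 Renin-null wells (21.9%). Among the wells that met the limits the shares were apart, at 4 of 15 WT (26.7%) and 9 of 57 Renin-null wells (15.8%). The summed levels were 87.9 CPM over WT wells against 285 CPM over Renin-null wells, a log2 ratio of 1.70 (1.67 to 1.72), but wells 19 and 61 held 48.4% and 42.5% of the Renin-null counts.

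Well 19, the larger contributor to Ep300, carried tubule transcripts and few of smooth muscle. It had 1937 CPM of the 5 proximal tubule markers (Slc34a1, Lrp2, Cubn, Miox and Slc5a2) against 304 CPM in all Renin-null counts, 25.7 CPM of the 4 smooth muscle markers (Acta2, Tagln, Cnn1 and Myh11) against 11546, and 1.74 CPM of Akr1b7. Without the 23 Renin-null wells under 10 CPM of Akr1b7, this well among them, the log2 ratio of Ep300 was 1.10.

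The CRTC coactivators differed from each other in breadth and level. Crtc3 (chr7:80586627-80688877, minus strand) was the broadest, detected in 34 of 51 WT wells (66.7%, 52.1% to 79.2%) and 73 of 96 Renin-null wells (76%, 66.3% to 84.2%). It ran up to 365 CPM in WT wells and 1012 CPM in Renin-null wells. Its summed level was 72.9 CPM over WT wells against 42.2 CPM over Renin-null wells, a log2 ratio of -0.79 (-0.82 to -0.76), yet at 10 CPM or more it was found in 10 of 51 WT wells (19.6%, 9.82% to 33.1%) and 24 of 96 Renin-null wells (25.0%, 16.7% to 34.9%). The mean over wells of CPM gave 0.44, so Crtc3, like Atf1, has no direction that holds for both summaries. Among the wells that met the limits, 5 of 15 WT and 19 of 57 Renin-null wells had at least 10 CPM of Crtc3 (33.3% in both genotypes).

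Crtc1 (chr8:70382355-70439579, minus strand) had the widest gap between the genotypes in summed counts. The 51 WT wells held 41 counts in all, in 7 wells, and the highest WT well had 2.05 CPM. The 96 Renin-null wells held 18856 counts, in 42 wells, with a highest of 681 CPM. That is 0.207 CPM over WT wells against 47.3 CPM over Renin-null wells, a log2 ratio of 7.83 (7.39 to 8.31), and it was 8.04 in YFP1 and 7.64 in YFP2. The Renin-null level came from few wells, however, because 10 of 96 (10.4%, 5.11% to 18.3%) had at least 10 CPM and 5 wells held 93.8% of the counts. Among the wells at 10 CPM or more, wells 60 and 64 held only 1 count of Crtc1 each, at totals of 9102 and 10502 counts. No WT well reached 10 CPM, which allows a share of up to 5.88% when 3 wells are taken as the limit of a count of 0 and up to 6.98% by the exact interval.

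The cells behind the Crtc1 level were mixed. Well 7, with 32.4% of the Renin-null counts of Crtc1, had 16.0 CPM of the smooth muscle markers, 2.90 CPM of Akr1b7 and 753 CPM of the fibroblast markers (Col1a1, Col1a2, Dcn, Lum and Pdgfra), which were at 625 CPM over all Renin-null counts. Wells 45 and 93, next in order with 19.9% and 17.2%, are a near-identical pair, and well 45 had 3580 CPM of Akr1b7, 17773 CPM of the smooth muscle markers and 866 CPM of the proximal tubule markers. With that pair and the others counted once the log2 ratio was 7.63, and without the wells under 10 CPM of Akr1b7 it was 7.29.

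Crtc2 (chr3:90254163-90264125, plus strand), the family member best known from the control of gluconeogenesis in liver, was the scarcest in Renin-null cells, and in WT cells Crtc1 alone was scarcer. It was detected in 8 of 51 WT wells and 34 of 96 Renin-null wells, with 206 and 2218 counts in all. The summed levels were 1.04 and 5.56 CPM, a log2 ratio of 2.42 (2.21 to 2.63). Of the Renin-null counts, 83.8% lay in well 63 alone. The log2 ratio was 0.22 in YFP1 and 3.14 in YFP2, the library of that well, and at least 10 CPM was present in 1 WT well and 2 Renin-null wells.

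**Figure D3:**
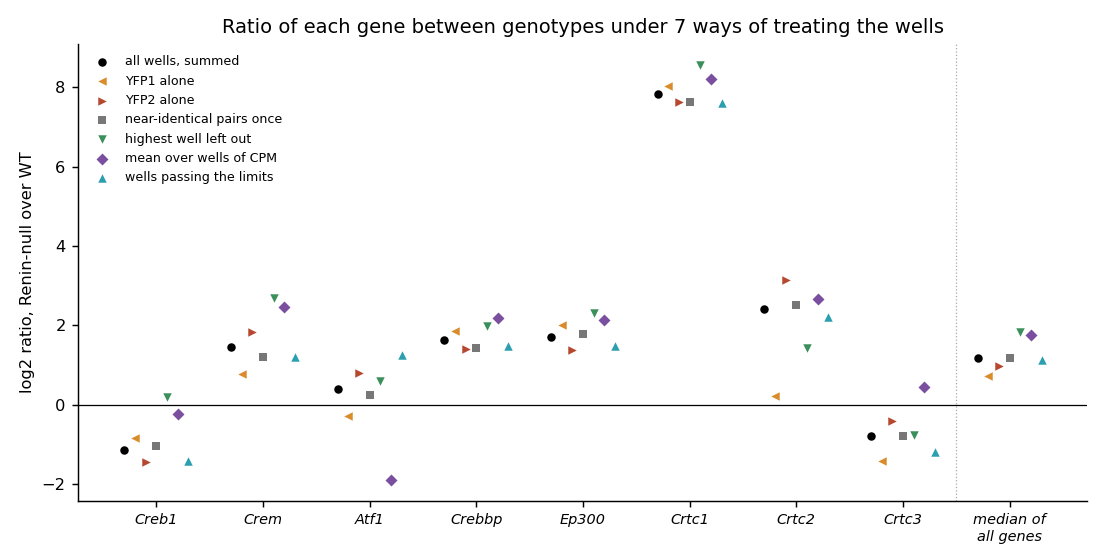
Log2 ratio, Renin-null over WT, of each gene and of the median of all genes with a ratio, for all wells summed, each Renin-null library alone, near-identical pairs counted once, the highest well of each genotype left out, the mean over wells of CPM, and wells that met the limits. Crem, Crebbp, Ep300, Crtc1 and Crtc2 stay above 0 in all 7 settings shown, and Creb1, Atf1 and Crtc3 change sign in at least 1. The median of all genes is also above 0 in all 7.

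The members were read against the shift of the whole transcriptome, since Renin-null sums were higher for most genes. The median log2 ratio was 1.17 over 18720 genes for which a ratio could be taken, and 52.4% of them had a log2 ratio of 1 or more and 18.5% a log2 ratio of -1 or less. Of the 8 members, 5 were at or above 1 (Crem, Crebbp, Ep300, Crtc1 and Crtc2) and 1 was at or below -1 (Creb1), shares near those of all genes. Their median was 1.53. Another scaling gave another split: with TMM factors 43.1% of all genes were at or above 1 and 27.2% at or below -1, and among the members 2 were above (Crtc1 and Crtc2) and 2 below (Creb1 and Crtc3), with medians of 0.47 for all genes and 0.83 for the members. The members' median lay below that of all genes in YFP1 alone (0.50 and 0.71) and without the highest wells (1.70 and 1.84).

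Levels between genes were compared per length, as CPM per 1000 bases of the mean protein-coding transcript in GENCODE release M21 (GRCm38). In WT cells the level per length was 66.6 for Crebbp, 58.2 for Atf1, 32.1 for Ep300, 29.5 for Creb1, 27.0 for Crem and 14.3 for Crtc3, and Crtc2 (0.379) and Crtc1 (0.0365) came last. In Renin-null cells Crebbp led again with a level per length of 205, followed by Ep300 (104), Atf1 (76.3) and Crem (73.4), and then Creb1 (13.3), Crtc1 (8.32), Crtc3 (8.24) and Crtc2 (2.02). Crebbp was first in both genotypes also when the longest transcript was used, but 4 of the 8 ranks in WT and 6 in Renin-null cells moved. Ep300 went from rank 3 to 6 and Crtc3 from 6 to 3 in WT cells. In Renin-null cells Crem went from rank 4 to 2 and Creb1 from 5 to 7. By mean length, most neighbours in the middle of the order were also not separable beyond the weight of 1 well. Without the highest well of each gene, Ep300 in WT cells was at 11.2, Crtc3 at 8.97, Creb1 at 8.78 and Crem at 8.10. Atf1 (40.4) and Crebbp (43.3) stayed above that group in WT cells. In Renin-null cells the second place of Ep300 by mean length rested on 1 well, since without the highest wells Ep300 was at 55.1, between Atf1 (60.7) and Crem (52.3), while Crebbp stayed first at 172. The values describe transcript abundance only, and a smaller number of cells that use a gene cannot be told apart from less RNA per cell in such sums.

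Expression of these genes was uneven between wells of a genotype. In WT cells 2 wells held 90% of the counts of Creb1, of Crem and of Ep300, 7 wells those of Crebbp and 14 wells those of Atf1. In Renin-null cells 2 wells held 90% of the counts of Ep300, 14 wells those of Crebbp and 13 wells those of Crtc3. Such concentration was usual in these libraries. The highest well held a median of 69.1% of a gene's counts over the 10853 WT genes with at least 100 counts, and 48.2% over 14802 such genes in Renin-null cells. Against these medians, Atf1 (34.8%), Crebbp (37.8%) and Crtc3 (42.5%) were less concentrated in WT cells. In Renin-null cells 6 of the 8 members were less concentrated, from 16.8% for Crebbp to 36.8% for Crtc3, Ep300 (48.4%) was at the median and Crtc2 (83.8%) above it.

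Low counts of 4 members in WT wells followed the sequencing index. Each well is read by a pair of index sequences, and wells that share 1 of them can receive stray reads from each other. In the WT library, Creb1 had at least 1 count in 13 of 14 wells that share an index with its highest well and in 14 of 36 that share none. Crem had at least 1 count in 10 of 14 and 5 of 36 such wells, Crtc3 in 13 of 14 and 20 of 36, and Ep300 in 4 of 6 and 10 of 44. Crebbp was found in 13 of 14 and 31 of 36, and Atf1 in 15 of 15 and 34 of 35, with Atf1 medians of 96 and 26 counts. Crtc1 and Crtc2, whose highest WT wells held 25 and 142 counts, were found in 0 of 6 wells that share an index with these and in 6 and 7 of 44 that share none. In YFP1 no member showed such a gap (Creb1 in 7 of 14 and 19 of 33 wells, Ep300 in 6 of 14 and 13 of 33), but in YFP2 Ep300 was found in 11 of 14 and 11 of 33 wells and Crtc3 in 13 of 14 and 24 of 33, and Crebbp had medians of 1741.5 and 37 counts. All 48 index pairs occur in both Renin-null libraries. Shares of wells at 1 count are therefore given beside those at 10 CPM, and the part of stray reads in them was not tested.

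Whether a well held all 3 parts of the machinery was asked next. At least 1 count of a factor (Creb1, Crem or Atf1), of an acetyltransferase (Crebbp or Ep300) and of a CRTC gene was found together in 33 of 51 WT wells (64.7%, 50.1% to 77.6%) and 67 of 96 Renin-null wells (69.8%, 59.6% to 78.7%). At a common depth of 62000 counts these shares were 14.3% (5.94% to 27.2%) and 19.3% (11.4% to 29.4%), and at 10 CPM they were 7.84% (2.18% to 18.9%) and 17.7% (10.7% to 26.8%). The parts differed in which genotype held them more widely. A factor at 10 CPM or more was present in 39 of 51 WT wells (76.5%, 62.5% to 87.2%) and 44 of 96 Renin-null wells (45.8%, 35.6% to 56.3%), and Atf1 was present in 36 of those 39 WT wells. An acetyltransferase was present at that level in 24 of 51 WT wells (47.1%, 32.9% to 61.5%) and 65 of 96 Renin-null wells (67.7%, 57.4% to 76.9%), and a CRTC gene in 10 of 51 (19.6%, 9.82% to 33.1%) and 34 of 96 (35.4%, 25.9% to 45.8%). The order of the factors did not hold among the wells that met the limits, where a factor was present in 7 of 15 WT wells (46.7%, 21.3% to 73.4%) and 37 of 57 Renin-null wells (64.9%, 51.1% to 77.1%). Among these wells the shares with an acetyltransferase were closer, at 11 of 15 WT (73.3%) and 45 of 57 Renin-null wells (78.9%). A CRTC gene was present in 5 of 15 (33.3%) and 27 of 57 (47.4%). The libraries differed as well, with a factor in 19 of 48 YFP1 and 25 of 48 YFP2 wells and a CRTC gene in 10 and 24 of 48.

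A well held a median of 4 of the 8 members in both genotypes, with a range of 1 to 7 in WT and 0 to 8 in Renin-null wells. All 8 were detected in 7 Renin-null wells and in no WT well, and 5 Renin-null wells had none. These numbers followed depth: across wells of a genotype, the number of members detected and the total count had a Spearman rho of 0.57 (51 WT wells) and 0.74 (96 Renin-null wells), and both quantities depend on depth. At 62000 counts per well the medians were 1 in WT and 2 in Renin-null wells.

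Pairs of members at 10 CPM or more were mostly pairs with Crebbp or, in WT cells, Atf1. In Renin-null cells Crebbp accompanied Crtc3 in 22 of the 24 wells with Crtc3, Atf1 in 16 of 21, Creb1 in 13 of 19, Crem in 10 of 13, Ep300 in 10 of 13 and Crtc1 in 9 of 10, where 62 of all 96 wells had Crebbp. Both wells of near-identical pairs are counted: 45 and 93 had Crebbp with Crtc1 and Atf1, 46 and 94 with Atf1, 47 and 95 with Crem, and 48 and 96 with Crtc3 and Ep300. Well 64 held 1 count each of Crebbp and Crtc1. The wells with Crebbp had a median total of 5720444 counts against 1689585.5 in the others, and the part of depth was not tested. In WT cells Crebbp accompanied Atf1 in 12 of the 36 wells with Atf1, where 20 of 51 had Crebbp. Among the 3 factors, Atf1 was present in 4 of the 19 Renin-null wells with Creb1 (21.1%), near its share of all wells (21 of 96, 21.9%), and Crem was present in 5 of the 19 (26.3%, 9.15% to 51.2%), beside 13 of 96 overall. No Renin-null well had both Crem and Atf1 at that level. For the 13 wells with Crem the exact interval of that share is 0% to 24.7%, beside the overall share of 21.9% for Atf1, and at 1 count the pair was found together in 30 Renin-null wells.

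**Figure D4:**
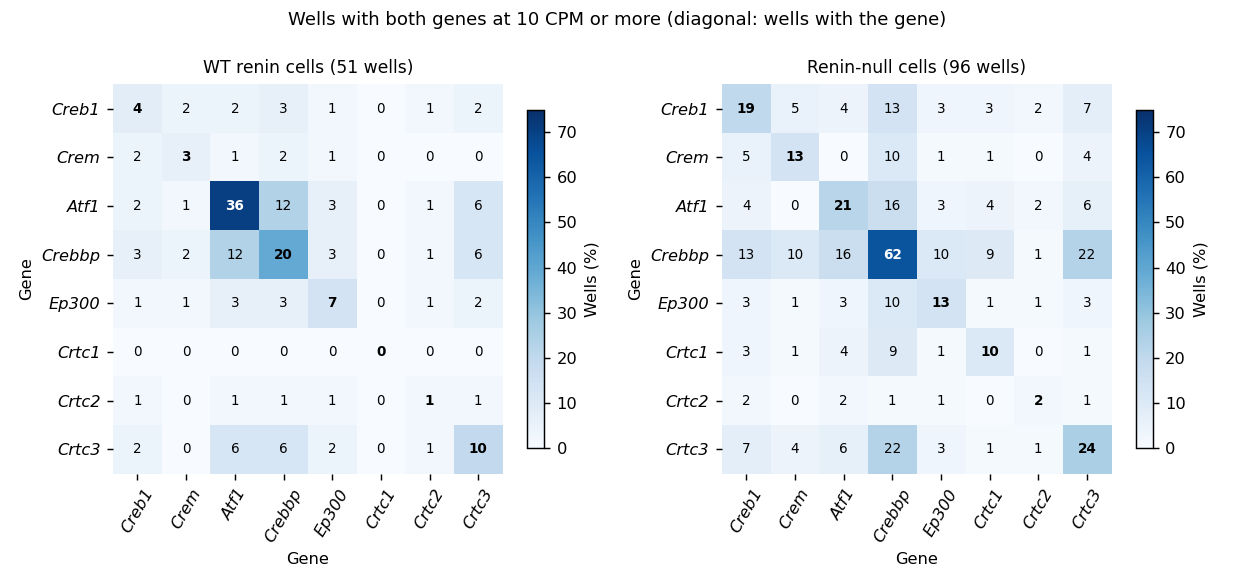
Number of wells with both genes at 10 CPM or more, for 51 WT wells and 96 Renin-null wells; the diagonal gives the wells with each gene, and the colour the percentage of wells. Crebbp is the partner found most often in Renin-null wells (22 wells with Crtc3, 16 with Atf1), and no Renin-null well had both Crem and Atf1. Both wells of near-identical pairs are counted.

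Correlations of log2(CPM + 1) across wells described the same looseness. Over 51 WT wells the Spearman rho of pairs of members lay between -0.23 and 0.41, apart from Crtc1 and Crtc2 (0.62), which rest on 7 and 8 wells with a count, 5 of them shared. Over 96 Renin-null wells it lay between -0.05 (Creb1 and Crtc1) and 0.39 (Atf1 and Crtc1). Wells of a genotype share depth and, in the near-identical pairs, profiles, and these values carry no test. By a fixed rule, the gene most like each member over single wells was taken as the one with the highest rho in the genotype where it was lower, among 6017 genes found in at least 20% of the wells of each genotype. It was Tmem182 for Creb1 (rho 0.56 in WT and 0.46 in Renin-null wells), Plekha2 for Atf1 (0.55 and 0.51), Paqr3 for Crtc3 (0.55 and 0.50), Psmd14 for Ep300 (0.49 and 0.48), Cstb for Crem (0.43 and 0.45) and Sox4 for Crebbp (0.43 and 0.45). Crtc1 and Crtc2 were found in too few WT wells to be compared.

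The pathway around the family was followed in 5 lists of 74 genes, with the counts under TMM factors given second. For the cAMP and protein kinase A genes, 9 of 16 had a log2 ratio of 1 or more and 2 of 16 of -1 or less, beside 52.4% and 18.5% of all genes. With TMM factors the counts were 9 and 3, beside 43.1% and 27.2% of all genes. The median of the list was 2.00 beside 1.17 for all genes. At the ends were Pkia, an inhibitor of the kinase, with 2.69 CPM over WT wells against 95.5 CPM over Renin-null wells (log2 ratio 5.15), and Adcy6, an adenylyl cyclase known for its role in renin release, with 202 and 41.6 CPM (log2 ratio -2.28). Adcy6 was lower in Renin-null cells in YFP1 (-1.62), in YFP2 (-3.22) and without the highest wells (-1.56). Pkia rested on few wells, since 92.7% of its WT counts and 58.5% of its Renin-null counts lay in 1 well each, and its log2 ratio was 6.13 in YFP1, 2.76 in YFP2 and 7.64 without the highest wells.

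The list of regulators of CREB and the CRTC proteins, kinases and phosphatases together with Cited2, which binds CBP and p300, gave 9 of 16 at 1 or more and 2 of 16 at -1 or less (5 and 4 with TMM factors), beside 52.4% and 18.5% of all genes (43.1% and 27.2% with TMM factors), with a median of 1.11 beside 1.17. Mark2, a kinase of the AMPK-related group that phosphorylates CRTC2, had 15 counts over the WT wells (0.0758 CPM) and 13688 over the Renin-null wells (34.3 CPM), a log2 ratio of 8.82 (8.10 to 9.66). It was found in 3 of 51 WT and 31 of 96 Renin-null wells. Rps6ka2, a kinase of the RSK family, had 23.3 and 1.5 CPM, a log2 ratio of -3.96, which was -3.18 without the highest wells.

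The other basic leucine zipper factors gave 7 of 15 at 1 or more and 3 of 15 at -1 or less, near the 52.4% and 18.5% of all genes. With TMM factors the counts were 5 and 5, beside 43.1% and 27.2% of all genes. The median of the list was 0.83 beside 1.17. Creb3l1 was listed at 0 in both genotypes and has no ratio. Creb3l2, a factor held in the endoplasmic reticulum membrane, had 24.6 and 107 CPM (log2 ratio 2.12), and Atf6, a sensor of unfolded protein, had 87.8 and 31.4 CPM (log2 ratio -1.48). Neither held in size across libraries. Creb3l2 was at 0.53 in YFP1 and 2.76 in YFP2, and Atf6 at -4.91 in YFP1, -0.67 in YFP2 and -0.43 without the highest wells.

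Of 10 other acetyltransferases and p160 coactivators, 2 were at 1 or more and 4 at -1 or less, beside 52.4% and 18.5% of all genes. With TMM factors the counts were 1 and 4, beside 43.1% and 27.2% of all genes. The median of the list was 0.07 beside 1.17 over all genes. Ncoa3, a p160 coactivator named here after its values were seen, was found in 68.6% of WT and 88.5% of Renin-null wells and had 127 and 318 CPM, a log2 ratio of 1.33 (0.64 in YFP1 and 1.72 in YFP2). Kat2b, which encodes PCAF, an acetyltransferase that binds CBP and p300, had 0.50 and 24.5 CPM (log2 ratio 5.61), in 5 of 51 WT and 25 of 96 Renin-null wells. Kat5, which encodes TIP60, had 29.7 and 0.466 CPM (log2 ratio -5.99), but 91.1% of its WT counts lay in 1 well and it was found in 7 WT and 8 Renin-null wells.

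Genes that CREB is known to switch on gave 4 of 16 at 1 or more and 3 of 16 at -1 or less (2 and 5 with TMM factors), beside 52.4% and 18.5% of all genes (43.1% and 27.2%), with a median of 0.14 beside 1.17 for all genes. Several of these immediate-early genes were present in nearly every well, and Fos, Btg2, Dusp1 and Nr4a1 were singled out after their values were seen. Fos, a subunit of AP-1, was found in 51 of 51 WT and 96 of 96 Renin-null wells, at 2.05 to 7134 CPM (median 126) in WT and 4.93 to 19449 CPM (median 1115) in Renin-null wells. Its summed level was 3043 CPM over WT wells against 3838 CPM over Renin-null wells, a log2 ratio of 0.33. Btg2, an antiproliferative gene, was at 1999 and 3068 CPM (log2 ratio 0.62), Dusp1, a phosphatase of MAP kinases, at 568 and 594 CPM (0.06), and Nr4a1, an orphan nuclear receptor, at 628 and 453 CPM (-0.47).

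At the ends of the target list were Pde4d and Ppargc1a. Pde4d, a phosphodiesterase that breaks down cAMP, had 1.63 CPM over WT wells against 29.7 CPM over Renin-null wells, a log2 ratio of 4.19, but 98.1% of its WT and 62.9% of its Renin-null counts lay in 1 well each, and without these the log2 ratio was 8.47. Ppargc1a, a coactivator of mitochondrial genes, had 124 and 7.72 CPM, a log2 ratio of -4.01. For Ppargc1a, 96.6% of the WT counts were in 1 well, and without the highest wells the log2 ratio was -0.87. Enzymatic digestion of tissue is known to switch on immediate-early genes, and its part in the levels of Fos, Btg2, Dusp1 and Nr4a1 was not tested.

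**Figure D5:**
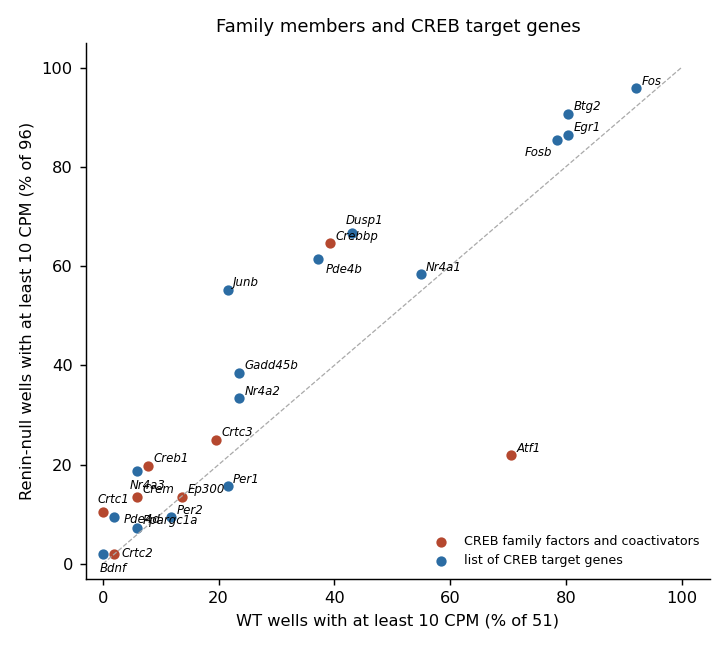
Share of wells with at least 10 CPM, in percent, in WT (x axis, 51 wells) against Renin-null cells (y axis, 96 wells), for the 8 CREB family genes and the 16 genes of the CREB target list; the dashed line marks equal shares. Fos (92.2% and 95.8%), Btg2 (80.4% and 90.6%) and other target genes lie at the upper right, Atf1 is far below the line (70.6% and 21.9%), and the remaining factors and CRTC genes lie at the lower left.

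Target levels did not follow the factors from well to well in the same way in both genotypes. WT wells with a factor at 10 CPM or more (39 wells) had a median of 5 of 16 targets at 10 CPM or more, and the other 12 WT wells a median of 9. In Renin-null cells the order was the opposite, with medians of 9 targets in 44 wells with a factor and 6 in 52 wells without. The groups differed in depth in the same direction as in targets, with median totals of 1296123 and 8061311 counts in the WT groups and 6730083 and 1150703 in the Renin-null groups, and the part of depth was not tested.

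The promoters of 4 broadly detected targets are shown because they hold the full element that CREB1, CREM and ATF1 bind or its core. The full CRE is TGACGTCA, a palindrome, and its core is TGACG, or CGTCA when read on the other strand; a full CRE contains overlapping cores on both strands. The sequences are those of RefSeq on GRCm38.p6, on the strand of the gene, from 250 bases before the start up to the start, with cores in capitals. Dusp1 is at chr17:26508473-26508722 (minus strand), Btg2 at chr1:134079156-134079405 (minus strand), Fos at chr12:85473640-85473889 (plus strand) and Nr4a1 at chr15:101266596-101266845 (plus strand).
Dusp1: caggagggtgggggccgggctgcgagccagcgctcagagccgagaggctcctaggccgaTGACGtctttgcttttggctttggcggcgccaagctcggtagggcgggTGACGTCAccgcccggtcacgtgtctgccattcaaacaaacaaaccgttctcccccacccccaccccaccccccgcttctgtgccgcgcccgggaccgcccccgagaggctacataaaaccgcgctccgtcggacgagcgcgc
Btg2: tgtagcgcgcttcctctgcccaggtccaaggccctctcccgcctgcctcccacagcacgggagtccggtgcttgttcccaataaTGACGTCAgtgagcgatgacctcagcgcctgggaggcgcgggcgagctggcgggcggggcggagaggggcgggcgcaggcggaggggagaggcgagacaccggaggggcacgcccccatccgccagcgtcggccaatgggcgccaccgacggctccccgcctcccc
Fos: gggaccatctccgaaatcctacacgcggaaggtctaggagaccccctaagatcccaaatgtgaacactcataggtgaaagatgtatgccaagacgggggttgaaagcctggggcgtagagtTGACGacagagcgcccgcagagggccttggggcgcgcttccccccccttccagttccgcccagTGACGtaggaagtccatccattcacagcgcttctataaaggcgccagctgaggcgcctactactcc
Nr4a1: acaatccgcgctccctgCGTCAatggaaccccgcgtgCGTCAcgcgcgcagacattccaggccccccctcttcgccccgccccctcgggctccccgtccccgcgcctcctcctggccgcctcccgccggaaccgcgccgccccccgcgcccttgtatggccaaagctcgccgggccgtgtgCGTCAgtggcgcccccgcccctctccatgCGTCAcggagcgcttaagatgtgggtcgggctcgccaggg

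Dusp1 and Btg2 each hold 1 full CRE, while Fos holds 2 cores and Nr4a1 holds 4, with no full CRE. Over windows of 250 bases before to 50 bases after the start, a full CRE on either strand was found in 1.79% of 32851 mouse promoters and at least 1 core in 20.8%. Promoters were given for 14 of the 16 target genes, 24 promoters in all, of which 2 (8.33%) held a full CRE and 13 (54.2%) at least 1 core. Promoters were matched for 6 of the 8 family genes; none held a full CRE and Atf1 alone held 1 core. The windows of Ren1 and Akr1b7 held neither. A match describes letters in a window and does not show binding, and the target list was made of known CREB targets, so its share is not a finding.

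Markers of other kidney cells were higher in the Renin-null sums, and some of the wells with the highest levels of the family carried them. From WT to Renin-null cells the 5 proximal tubule markers went from 24.5 to 304 CPM (Slc5a2 at 0 in WT), the podocyte markers Nphs1 from 2.54 to 142 CPM and Podxl from 0 to 94.3 CPM, and the 4 endothelial markers Pecam1, Cdh5, Emcn and Kdr from 30.8 to 210.5 CPM (Cdh5 at 0 in WT). The loop and distal tubule markers Umod, Slc12a1 and Slc12a3 went from 0.126 to 104 CPM. Aqp2 and Aqp3, the collecting duct markers, went from 2.78 to 34.4 CPM. The 5 fibroblast markers went from 171 to 625 CPM, mostly through Col1a1 (6.97 to 232 CPM) and Col1a2 (164 to 352 CPM). Each of these collagen genes was found in 79 Renin-null wells. Dcn passed 100 CPM in 3 Renin-null wells, and Pdgfra (0.634 CPM) and Lum (0.0176 CPM) were near 0 in the Renin-null sums. The fibroblast markers were at 343 CPM in YFP1 and 860 CPM in YFP2. Whether the collagen counts came from fibroblasts or from Renin-null cells, to which the paper gives a matrix-secretory phenotype, was not tested. Macrophage markers (Ptprc, Csf1r, C1qa and Lyz2, with C1qa and Lyz2 at 0 in WT) were near 0 in both, at 0.985 and 4.08 CPM. Not all of this was shared by the libraries: in YFP1 the endothelial markers were at 25.6 CPM and the collecting duct markers at 2.70 CPM, Nphs1 at 2.03 CPM and Podxl at 0.105 CPM, whereas in YFP2 they were at 365, 60.9, 259 and 173 CPM. The sum of the loop and distal tubule markers went the other way, at 183 CPM in YFP1 and 37.9 CPM in YFP2, but through Slc12a1 alone. Slc12a1 was at 170 CPM in YFP1 and 4.54 CPM in YFP2 and passed 100 CPM in 1 well. Umod was at 12.4 and 13.0 CPM and Slc12a3 at 0.777 and 20.4 CPM in the same libraries. The most abundant genes of these lists in Renin-null cells were Miox, Nphs1, Emcn, Slc12a1, Aqp2, Col1a2 and Ptprc. Smooth muscle markers, led by Acta2 in WT and Tagln in Renin-null cells, were at 10455 and 11546 CPM, and these contractile genes are known as markers of vessel wall cells.

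Leaving out the Renin-null wells under 10 CPM of Akr1b7 kept 73 wells and all 51 WT wells. The log2 ratios were then -0.95 for Creb1, 1.82 for Crem, 0.56 for Atf1, 1.82 for Crebbp, 1.10 for Ep300, 7.29 for Crtc1, 2.73 for Crtc2 and -0.65 for Crtc3. All 8 kept their direction, and at 10 CPM or more Atf1 was found in 17 and Crebbp in 49 of the 73 wells. What part other cell types had in the remaining differences was not tested.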

How the data were processed

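Sorted single cells were captured on a Fluidigm C1 instrument, amplified with SMART-Seq v4 and sequenced as Nextera XT libraries. The authors checked reads with FastQC (version 0.11.5 in the submitters' processing notes), trimmed them with Trimmomatic (0.39), quantified transcripts with Salmon (0.11.2) on GRCm38.p6 and summed them to genes with tximport and its lengthScaledTPM option. The values deposited by the authors are thus estimated counts, not normalized for depth. That option corrects for differences between wells in the transcript length of a gene, not for length between genes. The authors normalized them with SCTransform for their own comparison.

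The estimated counts were rounded to whole counts in each of 147 wells. All wells were kept, and no doublet caller was run. Totals per well, which set the precision, ranged from 3628 to 17124854 counts. Each genotype was summed as 1 sample, so that no test was run and no p-value is given. CPM carry exact Poisson intervals, ratios exact conditional intervals and shares of wells Clopper-Pearson intervals, all at 95%. A genotype at 0 was set to 3 counts over the group for a ratio, and no ratio was taken where both held 3 or fewer. Detection meant at least 1 count, with limits of 10 counts and 10 CPM and wells thinned to 62000 counts as alternatives. Pairs of wells with a Pearson correlation over 0.95 were called near-identical. The ratio was tested before use on simulated Poisson counts at the summed level of each genotype. These leave out the uneven spread of a gene's counts over wells, so the simulation does not test the ratios or intervals for it.

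The members and gene lists were chosen with earlier results of these data known. Named genes are the 8 members, Ren1 and Akr1b7, the genes at both ends of each list among those with at least 10 CPM in a genotype, and the gene most like each member; Fos, Btg2, Dusp1, Nr4a1, Ncoa3 and Cited2 were named after their values were seen. The alternatives were scaling without the 13 mitochondrially encoded genes, TMM factors, the mean over wells of CPM, SCTransform with the mitochondrial percentage regressed out, each library alone, wells that met limits, near-identical pairs counted once, the highest well left out, a gene filter of 100 counts and another gene length. Near-identical pairs once together with scaling without mitochondrial counts, wells under 10 CPM of Akr1b7 left out, and shares of wells with each class at 10 CPM within the limits, the pairs and each library were added after the data were seen. Positions came from GENCODE release M21 and promoters from RefSeq; the promoter of Crem is not reported here, and Crtc2 had no entry. Sums, intervals and figures were made in Python 3.11.15 (numpy 2.4.6, scipy 1.17.1, pandas 2.3.3, matplotlib 3.10.9); TMM factors came from edgeR 4.0.16, and corrected counts from sctransform 0.4.2 and Seurat 5.3.0, run under R 4.3.3.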

Additional observations from a re-analysis of the deposited data

How the results depend on the processing

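The median log2 ratio of the 8 members was above 0 under every alternative run, and its size moved with each. Against 1.53 with all wells summed, it was 1.37 without mitochondrial counts, 0.83 with TMM factors, 2.16 with the mean over wells of CPM, 2.16 with SCTransform, 0.50 in YFP1, 1.38 in YFP2, 1.36 over wells that met the limits, 1.31 with near-identical pairs counted once and 1.70 without the highest wells. Chosen after the data were seen, near-identical pairs once without mitochondrial counts gave 1.14, and the wells with at least 10 CPM of Akr1b7 gave 1.46. The median of all genes was above 0 in each of these settings too, from 0.47 with TMM factors to 1.84 without the highest wells. It lay above the median of the members in YFP1 (0.71) and without the highest wells. The direction turned in 7 of 88 values of single members. Creb1 was at 0.19 without the highest wells. Atf1 was at -0.31 with TMM factors, -1.90 with the mean over wells of CPM, -0.29 in YFP1 and -1.86 with SCTransform, and Crtc3 was at 0.44 with the mean over wells and 0.47 with SCTransform. The share of wells with all 3 classes was 14.3% in WT and 19.3% in Renin-null wells after thinning, 15.7% and 30.2% at 10 counts, 7.84% and 17.7% at 10 CPM, and 93.3% and 86% over wells that met the limits. The median number of members in a WT well was 1 after thinning, at 10 counts and at 10 CPM. Of the counts of list genes past the fold, 14 of 80 moved by over 1.5 times. Apart from the alternatives that change the wells, the libraries or the limits by construction, the cause was not tested. No paired analysis was possible because the replicate numbers only name wells and no test was run. The shallowest wells, down to 3628 counts, cannot show absence of a gene at a few CPM.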
